A study of Mus musculus with 9 samples.

Results

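The 10 genes described here encode the proteins that turn light into a voltage change in cone photoreceptors: the opsins Opn1sw and Opn1mw, the transducin subunits Gnat2, Gnb3 and Gngt2, the phosphodiesterase subunits Pde6c and Pde6h, the channel subunits Cnga3 and Cngb3, and cone arrestin Arr3. They were chosen by gene name from the 21769 genes counted in each library, and all 10 were found. The counts come from polyadenylated RNA of whole mouse retina in 9 libraries of 2 retinae each. The rd10 group (3 libraries) had the genotype rd10, was taken at postnatal day 61 and is labelled as degenerated. The GFP group (3 libraries) was labelled as expressing green fluorescent protein and as normal. It was read here as the line written Gg13 in the labels, taken at day 42, because no other group lacked an age. The wild type group (3 libraries) was taken at day 48 and is labelled as normal. No source used here gives the strain background, the promoter of the GFP gene or the sex of the mice. Age and genotype coincided and cannot be told apart. The labels call the replicates biological.

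In a cone, light activates an opsin, the opsin activates the alpha subunit of transducin, and this subunit releases the catalytic phosphodiesterase from its inhibitory subunit. The enzyme then breaks down cyclic GMP, and the channels held open by cyclic GMP close. Arrestin binds the activated opsin and ends its signal. Rods run the same steps with their own gene products, and most mouse cones hold some of both opsins. The rd10 mouse carries a mutation of Pde6b, a catalytic subunit of the rod phosphodiesterase, so its lesion lies in rods and not in a gene of the cone cascade. Its rods degenerate first, and its cones are lost later.

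Library totals lay between 9597635 and 12149448 counts, and each member had between 122 and 5918 counts in every library, so that all 10 passed the filter on low counts. Levels are given in CPM, counts relative to a library size that was corrected by edgeR's TMM method. Scaling by library totals alone moves the median log2 fold change of all genes to 0.25 against wild type, from -0.03 with TMM, and to 0.31 against GFP, from -0.02, so changes below are relative to the TMM median. Several libraries stood apart in ways the groups do not explain. The summed level of 15 lens genes was 2673 to 6304 CPM in rd10 2, GFP 1, wild type 2 and wild type 3, against 49.0 to 139.7 CPM in the other 5 libraries. On the second principal component, which held 17.3% of the variance, GFP 2 lay at -54.5 and wild type 3 at -28.6, below the other normal libraries. Calls of members are given with and without the libraries with lens RNA, and calls of other genes only in part. Fits without wild type 3 and GFP 2 are given for some genes. Ratios between genes use all libraries. Without the libraries with lens RNA, or without wild type 3 and GFP 2, too few remain for the test of the ratios to pass.

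The share of counts held by the cone cascade in rd10 retina overlapped that in wild type, while the share held by genes of the rod cascade was far lower. Of the 10 cone genes, Pde6c rose and Opn1sw fell against wild type, and the other 8 did not pass the test (edgeR's quasi-likelihood F-test, Benjamini-Hochberg adjusted p under 0.05 over 14300 genes). Of all genes tested, 28.4% passed in that comparison, 14.5% higher and 13.9% lower. Against GFP, Pde6c, Gnb3 and Cngb3 rose, Opn1sw fell, and 6 members did not pass, beside 30.2% of all genes that did, 15.2% of all genes being higher. Both comparisons use the same 3 rd10 libraries. The median log2 fold change of the members was -0.01 against wild type and 0.09 against GFP, and that of all genes was -0.03 and -0.02. Fewer cells of a type and less RNA per cell cannot be told apart in whole retina.

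The 10 genes together made up 0.211%, 0.220% and 0.199% of the counts in rd10 libraries 1, 2 and 3. Their share was 0.138%, 0.187% and 0.148% in the GFP libraries and 0.166%, 0.168% and 0.228% in the wild type libraries. The rd10 shares lay above every GFP library and inside the range of wild type. On the TMM scale the summed level overlapped both, at 1781 to 1868 CPM in rd10, 1483 to 2055 CPM in GFP and 1755 to 2293 CPM in wild type. Of their rod counterparts, 9 (Gnat1, Gnb1, Gngt1, Pde6a, Pde6b, Pde6g, Cnga1, Cngb1 and Sag) held 0.115% to 0.159% of the counts in rd10, 4.34% to 5.10% in GFP and 4.47% to 5.45% in wild type.

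**Figure D1:**
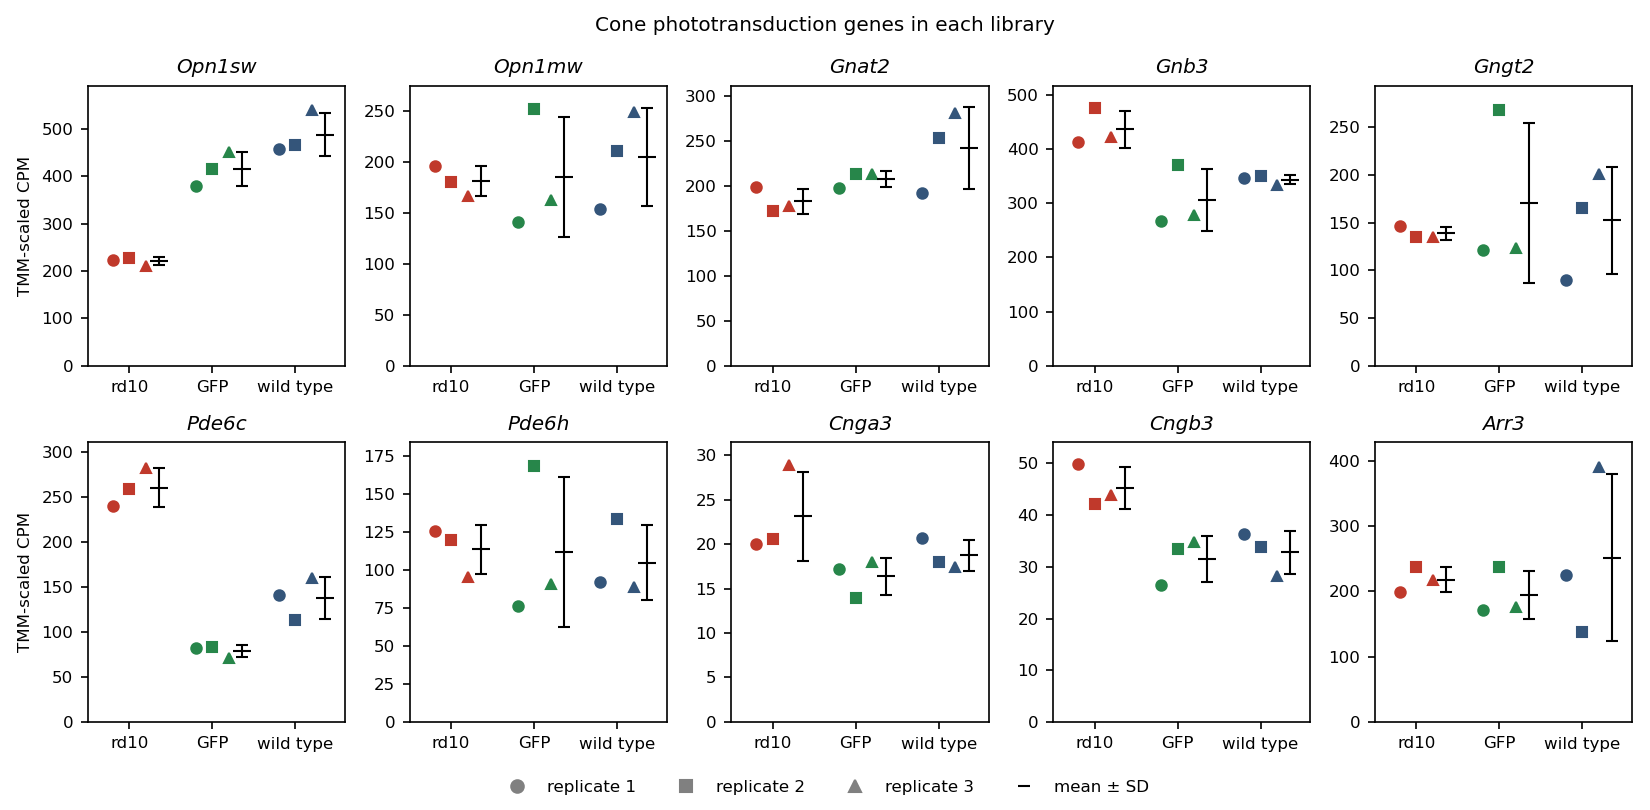
TMM-scaled CPM (y axis, from 0) of the 10 cone genes in the 3 rd10, 3 GFP and 3 wild type libraries. Each point is 1 library, with its replicate number as its shape, and the bar beside the points is the mean ± SD. Opn1sw is lower in all 3 rd10 libraries (210.9 to 226.8 CPM) than in any other library, and Pde6c is higher (239.2 to 282.2 CPM).

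The opsins were examined first. Opn1sw, the short-wavelength cone opsin (chromosome 6, 29326671 to 29330513, minus strand, mm9), had 224.2, 226.8 and 210.9 CPM in rd10, against 379.9, 415.6 and 451.1 CPM in GFP and 456.9, 467.2 and 541.1 CPM in wild type. All rd10 libraries lay below all 6 normal ones. The rd10 mean of 220.7 ± 8.52 CPM stood against a wild type mean of 488.4 ± 45.9 CPM (SD, n = 3 each), and the gene fell by 1.15 on the log2 scale (95% interval -1.48 to -0.82; edgeR adjusted p = 3.92e-04). Against GFP it fell by 0.91 (-1.24 to -0.58; edgeR adjusted p = 0.00158). Against wild type the call held in 19 of 20 alternatives. It was lost without the 4 libraries with lens RNA, which leaves 1 wild type library (log2 change -1.07, edgeR adjusted p = 0.0894, the lone library being assumed to vary like the other groups). Against GFP it held in all 20. Opn1sw and Calu, on the other strand, overlap by 5 bases. Calu, which encodes a calcium-binding protein of the secretory pathway, was 1.36-fold lower against wild type (edgeR adjusted p = 0.0318), a call that held in 6 of 20 alternatives and was lost, for example, with library totals (log2 -0.16, edgeR adjusted p = 0.443). Against GFP it did not pass (log2 difference -0.31, edgeR adjusted p = 0.103). No source used here gives the strand setting of the counting.

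Opn1mw, the medium-wavelength opsin (chromosome X, 71372805 to 71396094, plus strand), had 196.1, 179.8 and 166.5 CPM in rd10, against 141.0, 251.9 and 162.7 CPM in GFP and 153.4, 210.9 and 248.8 CPM in wild type. The rd10 values lay inside the range of the normal libraries, and GFP 2 and wild type 3 were the highest. The log2 difference was -0.18 against wild type (95% interval -0.70 to 0.35; edgeR adjusted p = 0.602) and -0.03 against GFP (-0.56 to 0.49; edgeR adjusted p = 0.924). Without wild type 3 and GFP 2 these differences were -0.01 and 0.25, neither past the test (edgeR adjusted p = 0.957 and adjusted p = 0.298). The ratio of Opn1sw to Opn1mw counts within a library does not depend on scaling. It was 1.14 to 1.27 in rd10 and 1.65 to 2.98 in the 6 normal libraries, without overlap, a difference of -0.95 on the log2 scale (two-sided exact permutation test, p = 0.0238, the smallest that 3 against 6 libraries allow; adjusted over 16 gene pairs, p = 0.0293).

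Since the opsins differed in their change, the 250 bases before each start site are shown (RefSeq, GRCm38.p6), 5′ to 3′ on the strand of the gene. The search covered 250 bases before to 50 after each start site, on both strands, for AGGTCA, a core motif of nuclear receptors such as those for thyroid hormone and retinoids, and for TAATCC, the core bound by the photoreceptor factors CRX and OTX2. Capitals mark matches to AGGTCA, or to TGACCT where the match is on the other strand.
Opn1sw, chr6:29380514-29380763, minus strand: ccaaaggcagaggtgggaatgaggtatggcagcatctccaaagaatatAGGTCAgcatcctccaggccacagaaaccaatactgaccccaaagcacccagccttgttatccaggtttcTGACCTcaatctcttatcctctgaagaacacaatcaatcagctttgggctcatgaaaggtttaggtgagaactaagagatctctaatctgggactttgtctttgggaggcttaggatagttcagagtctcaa
Opn1mw, chrX:74127216-74127465, plus strand: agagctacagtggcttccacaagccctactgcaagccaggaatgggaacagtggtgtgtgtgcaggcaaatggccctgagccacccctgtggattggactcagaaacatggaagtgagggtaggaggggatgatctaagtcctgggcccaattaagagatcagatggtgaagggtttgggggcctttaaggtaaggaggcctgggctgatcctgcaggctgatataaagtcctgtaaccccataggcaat
The Opn1sw window held 2 matches to AGGTCA, which begin 202 and 132 bases before the start site, and no TAATCC. The Opn1mw window held neither motif. Promoters were found for 6 of the 10 members, 7 windows in all. Besides Opn1sw, 1 of these windows held a match, that of Gnat2, with TAATCC on the other strand beginning 19 bases before the start site. Of 32851 mouse promoter windows, 16.3% held AGGTCA and 7.06% held TAATCC.

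The transducin subunits came next. Gnat2, the alpha subunit of cone transducin (chromosome 3, 107895986 to 107904203), had 199.1, 172.6 and 178.0 CPM in rd10, against 198.2, 213.4 and 213.5 CPM in GFP and 192.3, 253.3 and 281.7 CPM in wild type. The groups overlapped, since rd10 1 lay above GFP 1 and wild type 1. The log2 difference from wild type was -0.40 (95% interval -0.77 to -0.04; edgeR adjusted p = 0.0916), and that from GFP was -0.19 (-0.55 to 0.18; edgeR adjusted p = 0.415). Leaving out wild type 1 brought the difference from wild type past the test (edgeR adjusted p = 0.0368). It was smaller with library totals (log2 -0.12, edgeR adjusted p = 0.642) and without the lens libraries (log2 -0.03, edgeR adjusted p = 0.965).

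Gnb3, the beta subunit of cone transducin (chromosome 6, 124784258 to 124790293), which ON bipolar cells also use, had 412.5, 476.3 and 422.9 CPM in rd10, against 267.7, 371.5 and 279.4 CPM in GFP and 347.3, 350.2 and 334.5 CPM in wild type. Every rd10 library lay above every normal library. Against GFP it rose 1.43-fold (log2 0.51, 95% interval 0.15 to 0.88; edgeR adjusted p = 0.0380), a call that held in 12 of 20 alternatives. It was lost, for example, without any 1 of the rd10 libraries and without the lens libraries (log2 0.36, edgeR adjusted p = 0.353). Against wild type the log2 difference was 0.35 (-0.02 to 0.71; edgeR adjusted p = 0.138), past the test in 2 of 20 alternatives, library totals and the length correction. The summed level of 12 ON bipolar genes was 2944 to 3614 CPM in rd10, 1997 to 2177 CPM in GFP and 1834 to 2163 CPM in wild type. Of the 12, 6 rose against wild type and none passed as lower, with log2 fold changes from -1.40 to 1.31. Without the lens libraries 0 of the 12 passed, and without GFP 2 another gene of the list passed as lower. Its part in the Gnb3 values was not tested.

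Gngt2, the gamma subunit of cone transducin (chromosome 11, 95703609 to 95707045), had 146.5, 134.5 and 135.2 CPM in rd10, against 121.4, 267.6 and 123.2 CPM in GFP and 90.3, 165.4 and 201.1 CPM in wild type. It had the widest spread of the 3 subunits in the normal libraries, and GFP 2 and wild type 3 were again the highest. The log2 difference was -0.13 against wild type (95% interval -0.88 to 0.61; edgeR adjusted p = 0.789) and -0.30 against GFP (-1.04 to 0.44; edgeR adjusted p = 0.520), and without wild type 3 and GFP 2 both differences changed sign, to 0.11 and 0.18. The gene shares 182 bases with Abi3 on the other strand, a gene of microglia, which had 7.11 to 11.5 CPM in rd10, 3.15 to 4.59 CPM in GFP and 2.53 to 5.92 CPM in wild type. Within libraries, the ratio of Gnat2 to Gnb3 counts was 0.363 to 0.483 in rd10 and 0.554 to 0.842 in the normal libraries, a log2 difference of -0.72 without overlap (exact permutation test, adjusted p = 0.0293). Gnb3 is also used by ON bipolar cells, whose part in this ratio was not tested. The ratio of Gnat2 to Gngt2 was 1.28 to 1.36 in rd10, inside the 0.798 to 2.13 of the normal libraries (log2 difference -0.16; exact permutation test, adjusted p = 0.610).

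Pde6c showed the largest rise of the members. It encodes the catalytic subunit of the cone phosphodiesterase (chromosome 19, 38207271 to 38258441), the counterpart of the gene mutated in rd10. It had 239.2, 258.8 and 282.2 CPM in rd10, against 82.4, 82.6 and 70.9 CPM in GFP and 140.7, 113.2 and 159.8 CPM in wild type. The 3 groups did not overlap, with rd10 highest and GFP lowest. The mean was 260.1 ± 21.5 CPM in rd10, 78.7 ± 6.70 CPM in GFP and 137.9 ± 23.4 CPM in wild type (SD, n = 3 each). The gene rose 1.89-fold against wild type (log2 0.92, 95% interval 0.55 to 1.28; edgeR adjusted p = 0.00275) and 3.31-fold against GFP (log2 1.73, 1.35 to 2.10; edgeR adjusted p = 3.94e-05). Against wild type the call held in 19 of 20 alternatives and was lost without the lens libraries (log2 0.89, edgeR adjusted p = 0.180). Against GFP it held in all 20. Pde6b itself had 6.01, 22.5 and 30.1 CPM in rd10, against 3071 to 3378 CPM in GFP and 2683 to 3688 CPM in wild type. The ratio of Pde6c to Pde6b counts was 9.33 to 38.8 in rd10 and 0.0223 to 0.0597 in the normal libraries.

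Pde6h, the inhibitory subunit of the cone enzyme (chromosome 6, 136903044 to 136912004), had 125.9, 119.4 and 95.1 CPM in rd10, against 76.6, 168.3 and 90.5 CPM in GFP and 92.2, 133.5 and 88.9 CPM in wild type. Its groups overlapped, and the log2 difference was 0.11 against wild type (95% interval -0.51 to 0.74; edgeR adjusted p = 0.787) and 0.02 against GFP (-0.60 to 0.64; edgeR adjusted p = 0.957). Within libraries, transcripts of the catalytic subunit were higher in rd10 relative to those of the inhibitory subunit. Protein was not measured. The ratio of Pde6c to Pde6h counts was 1.90, 2.17 and 2.96 in rd10 libraries 1, 2 and 3, against 0.492 to 1.80 in the 6 normal libraries, a log2 difference of 1.21 without overlap (exact permutation test, adjusted p = 0.0293). The highest normal value, that of wild type 3, lay close to the lowest rd10 value. The normal libraries here pool wild type with GFP, where Pde6c was lowest.

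The channel subunits had the lowest levels. Cngb3, the beta subunit of the cone channel (chromosome 4, 19207997 to 19437770), had 49.9, 42.1 and 43.9 CPM in rd10, against 26.5, 33.5 and 34.8 CPM in GFP and 36.4, 33.9 and 28.3 CPM in wild type. All rd10 libraries lay above all normal libraries. It rose 1.43-fold against GFP (log2 0.52, 95% interval 0.14 to 0.90; edgeR adjusted p = 0.0440), a call that held in 9 of 20 alternatives and was lost, for example, without the lens libraries (log2 0.45, edgeR adjusted p = 0.229) and without any 1 of the rd10 libraries. Against wild type the log2 difference was 0.46 (0.08 to 0.85; edgeR adjusted p = 0.0681), past the test in 6 of 20 alternatives.

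Cnga3, the alpha subunit that forms the pore (chromosome 1, 37276106 to 37320229), had 20.0, 20.5 and 28.9 CPM in rd10, against 17.2, 14.0 and 17.9 CPM in GFP and 20.7, 18.0 and 17.5 CPM in wild type. Wild type 1 lay above the 2 lower rd10 libraries. The log2 difference was 0.31 against wild type (95% interval -0.14 to 0.75; edgeR adjusted p = 0.274) and 0.50 against GFP (0.05 to 0.95; edgeR adjusted p = 0.0853). Cnga3 passed the test in 1 of 20 alternatives against wild type, library totals, and in 2 of 20 against GFP, library totals and upper quartile scaling. The ratio of Cnga3 to Cngb3 counts was 0.403 to 0.660 in rd10 and 0.421 to 0.653 in the normal libraries (log2 difference -0.11; exact permutation test, adjusted p = 0.610).

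Arr3, cone arrestin (chromosome X, 97800836 to 97813832), is widely used as a marker of cones. It had 199.7, 237.3 and 217.0 CPM in rd10, against 172.1, 236.8 and 175.5 CPM in GFP and 225.4, 138.5 and 391.1 CPM in wild type. The wild type libraries held both its lowest and its highest value, so the comparison with wild type was wide. The log2 difference was -0.21 against wild type (95% interval -0.89 to 0.47; edgeR adjusted p = 0.638) and 0.16 against GFP (-0.52 to 0.84; edgeR adjusted p = 0.711). Without wild type 3 the difference from wild type changed sign, to 0.26. Set against Arr3, Opn1sw was lower in rd10: the ratio of their counts was 0.956 to 1.12 in rd10 and 1.38 to 3.37 in the normal libraries (log2 difference -1.07; exact permutation test, adjusted p = 0.0293). The ratio of Opn1mw to Arr3 was 0.758 to 0.982 in rd10, inside the 0.636 to 1.52 of the normal libraries (log2 difference -0.12; exact permutation test, adjusted p = 0.762).

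**Figure D2:**
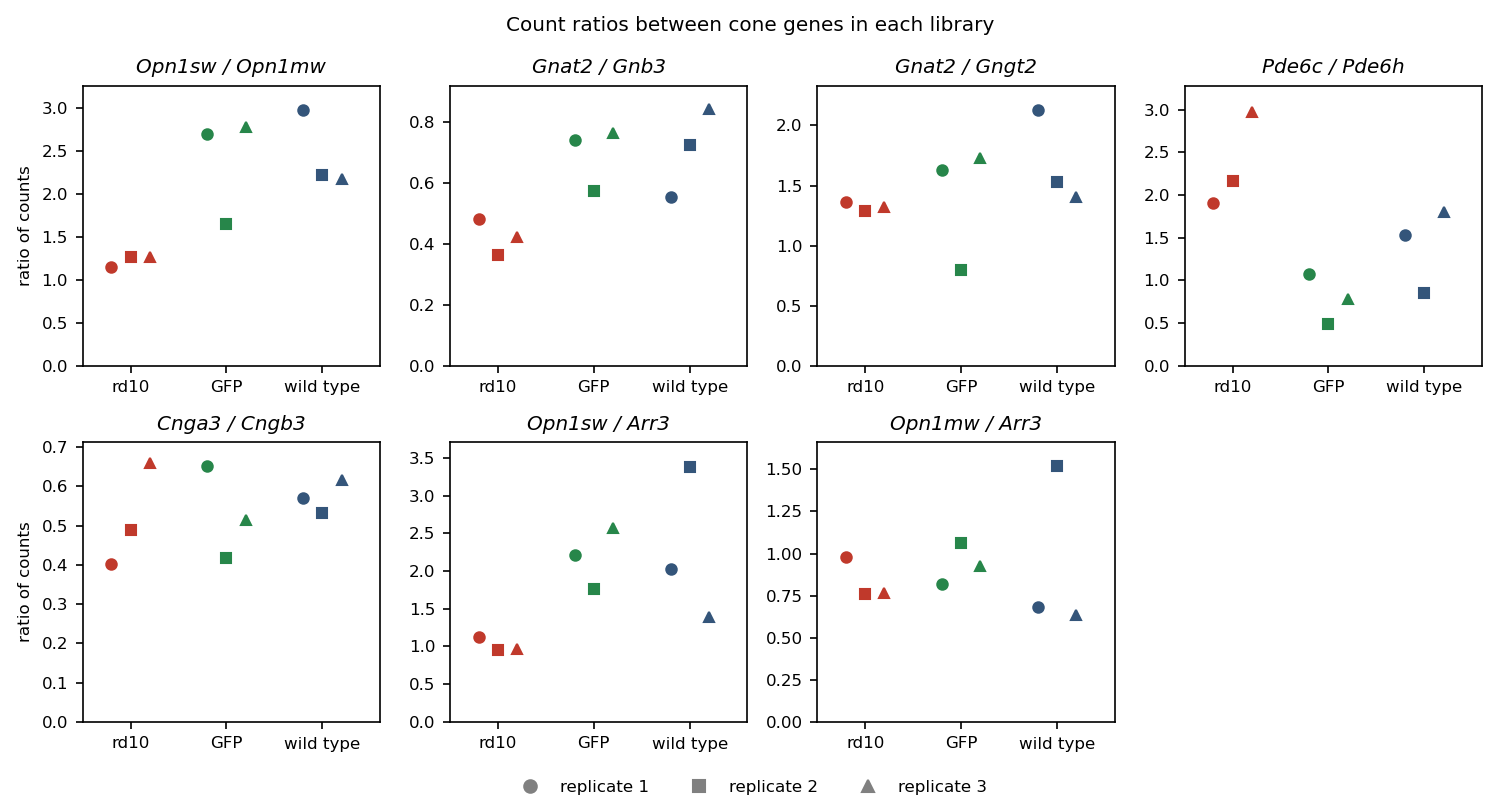
Ratios of the counts of pairs of cone genes within each library (y axes, from 0, no unit) in the 3 rd10, 3 GFP and 3 wild type libraries, 1 point per library. The rd10 points lie below all normal points for Opn1sw over Opn1mw, Gnat2 over Gnb3 and Opn1sw over Arr3, above them for Pde6c over Pde6h, and overlap them for the other 3 pairs. For Cnga3 over Cngb3 the rd10 points reach slightly below and slightly above the normal ones.

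In the whole set of members, 3 lay above every wild type library in all rd10 libraries (Gnb3, Pde6c and Cngb3) and 1 lay below (Opn1sw). Of all genes tested, 50.5% were separated in that way, 26.1% above and 24.4% below. Against GFP, 4 members lay above (Gnb3, Pde6c, Cnga3 and Cngb3) and 1 below (Opn1sw), beside 48.2% of all genes, 25.1% above and 23.1% below. The 4 and 5 members of 10 lie near or under these background shares, so their number is not a result about the list.

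**Figure D3:**
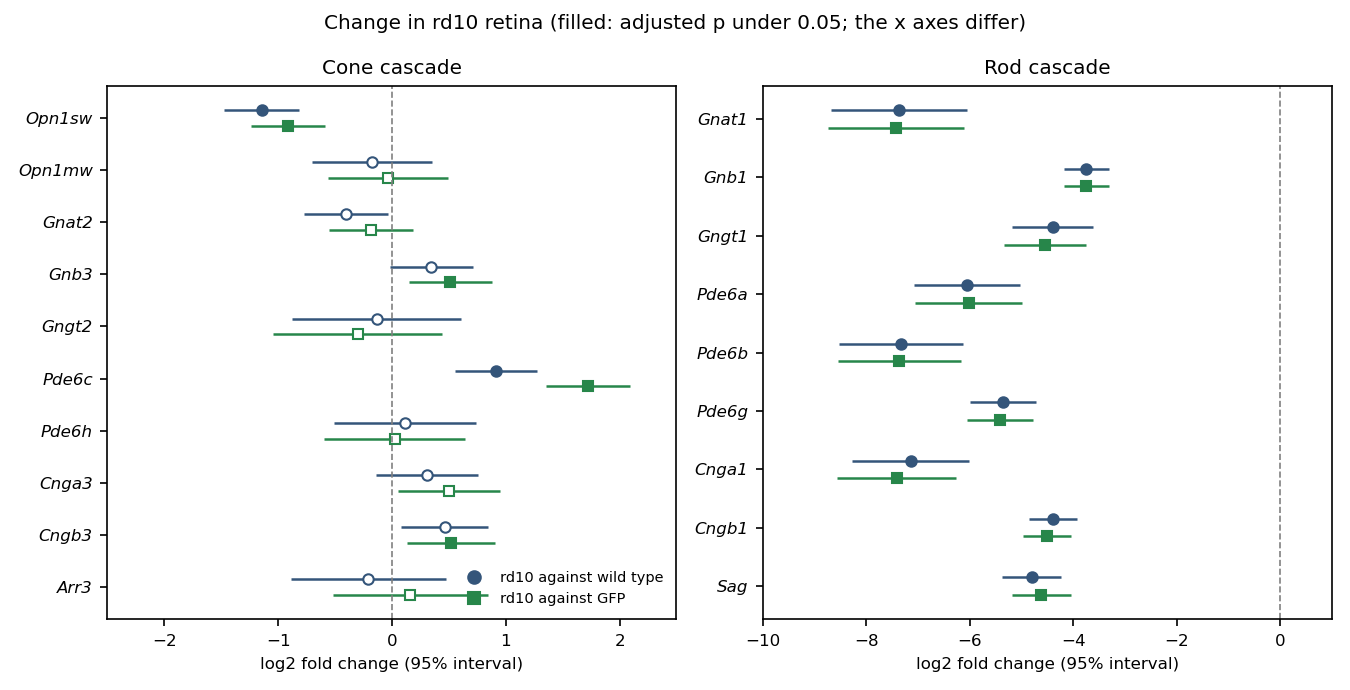
Log2 fold change in rd10 (x axis; the 2 panels have different ranges) of the 10 cone genes and 9 rod counterparts, against wild type (circles) and against GFP (squares), with 95% intervals. Filled symbols have an edgeR adjusted p under 0.05. The cone genes lie on both sides of 0, between -1.15 and 1.73, and all rod genes lie below -3.7.

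The comparison with rods puts these values in scale. The 9 rod counterparts all fell in rd10, by 13.4-fold (Gnb1) to 165.3-fold (Gnat1) against wild type, with a median log2 fold change of -5.36 beside -0.03 for all genes, and these calls held in all 20 alternatives against wild type and against GFP. Gnb1 is used by many other cell types too. Gnat1, the alpha subunit of rod transducin, had 40.1, 156.0 and 223.8 CPM in rd10, against 22920 to 26050 CPM in GFP and 19370 to 29200 CPM in wild type. The ratio of the summed rod to the summed cone level was 0.545, 0.659 and 0.801 in rd10 libraries 1, 2 and 3, against 27.3 to 33.6 in GFP and 20.6 to 32.4 in wild type. In rd10 the 10 cone genes together thus had more counts than these 9 rod genes, and in every normal library far fewer. The sets are not alike, since the cone sum includes Opn1sw and Opn1mw and the rod sum includes no opsin. The ratio was not computed without the opsins, so which sum was larger in rd10 holds for these sets only.

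The transducin, phosphodiesterase, channel and arrestin genes each showed this shift. In 9 pairs of a cone gene and its rod counterpart, the cone to rod ratio of counts was higher in every rd10 library than in any normal library, by 4.17 (Gnb3 over Gnb1) to 8.94 (Pde6c over Pde6b) on the log2 scale, or 18.0-fold to 490.5-fold (exact permutation test, adjusted p = 0.0293 for each pair). Gnb3 and Gnb1 are both used by other cell types too. Gnat2 over Gnat1 was 0.795 to 4.95 in rd10, against 0.00820 to 0.0135 in the normal libraries. Arr3 over Sag was 0.610 to 0.886 in rd10, so that rod arrestin still had more counts than cone arrestin in every rd10 library, against 0.0192 to 0.0419 in the normal libraries. Among the rd10 libraries, rd10 1 had the highest ratio in 7 of the 9 pairs.

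**Figure D4:**
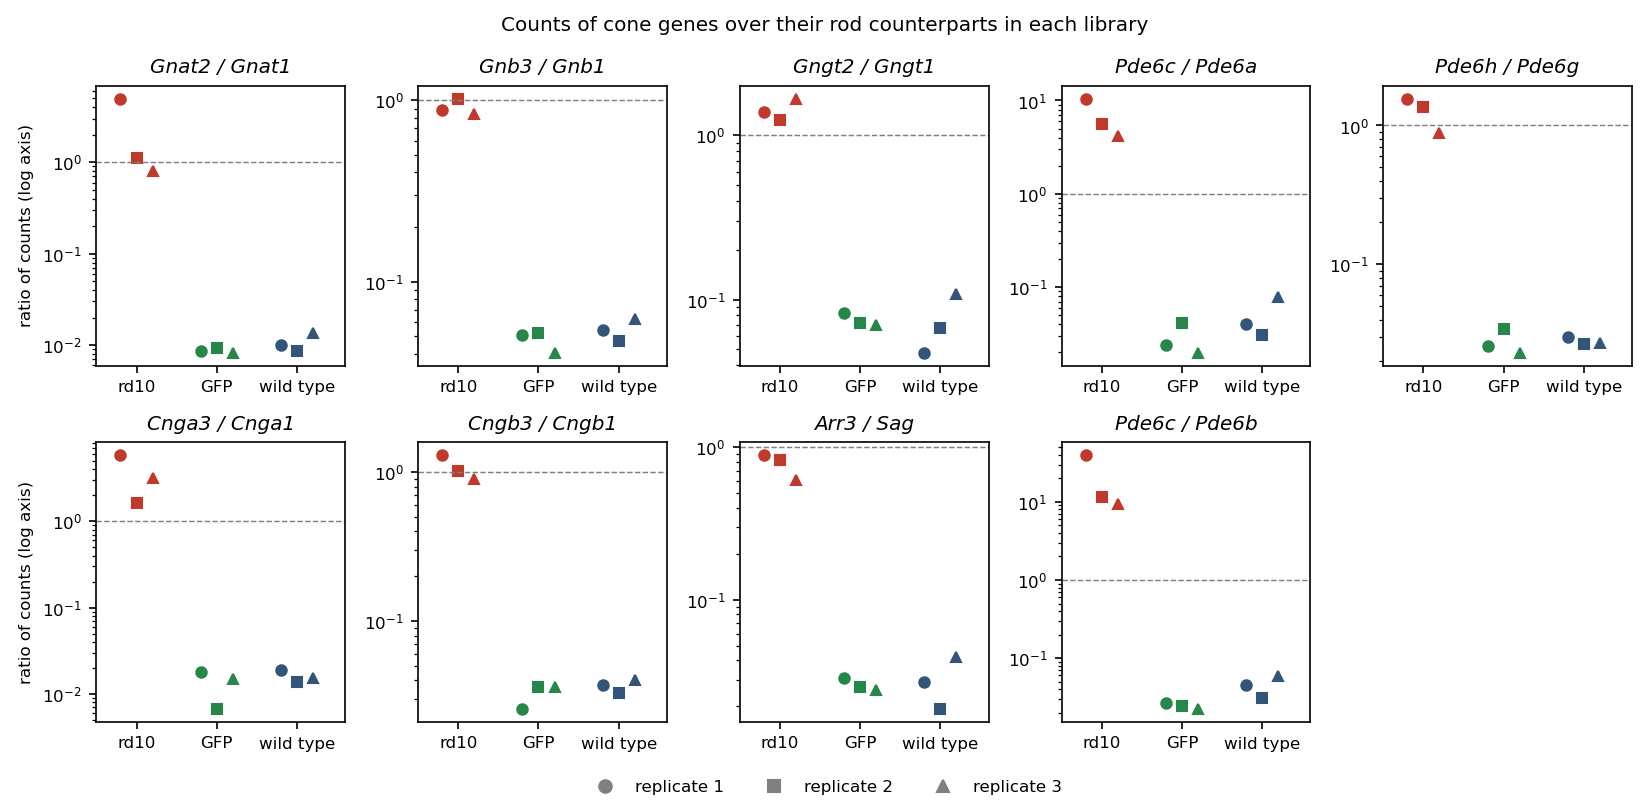
Ratio of the counts of each cone gene to those of its rod counterpart in each library (y axes, log scale, no unit), for 9 pairs in the 3 rd10, 3 GFP and 3 wild type libraries. The dashed line marks equal counts. The rd10 points lie 18.0-fold to 490.5-fold above the normal points on average, near or above the line, and no normal point reaches it.

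Per length of transcript, the order of the members changed between the groups. Levels per kilobase use the RefSeq-matched transcript of a later annotation, not that of the authors, and Pde6h also has much shorter transcripts than the one of 5940 bases used here. In rd10, Gnb3 (237 ± 18.5 CPM per kb) and Gngt2 (236 ± 11.5) were highest and did not differ beyond their spread (SD, n = 3). Arr3 (160 ± 13.8) and Opn1mw (147 ± 12.1) followed, with overlapping libraries, and then Opn1sw (91.6 ± 3.54), Pde6c (89.8 ± 7.44) and Gnat2 (89.2 ± 6.82), which overlapped too. In wild type, Gngt2 (259 ± 96.3 CPM per kb) was followed by Opn1sw (203 ± 19.1), Gnb3 (186 ± 4.52), Arr3 (185 ± 94.4), Opn1mw (167 ± 39.2) and Gnat2 (118 ± 22.2), and the libraries of each overlapped those of the next in this order. Pde6c lay lower, at 47.6 ± 8.09 CPM per kb. Opn1sw thus took place 5 in rd10 and place 2 in wild type. Cngb3 and Cnga3 had the lowest levels in both, at 9.62 ± 0.863 and 6.51 ± 1.41 CPM per kb in rd10, against 6.97 ± 0.879 and 5.27 ± 0.490 in wild type.

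The GFP and wild type retinae, both labelled normal, were compared as well. None of the members passed the test, and none of the 14300 genes did (0.0% higher or lower). At an unadjusted p under 0.05 there was 1 member, beside 214 genes or 1.5% of those tested, and DESeq2 called 2 genes, both lower. The member was Pde6c, which was lower in all 3 GFP libraries than in any wild type library (log2 difference -0.81, 95% interval -1.17 to -0.45; edgeR unadjusted p = 4.77e-04, edgeR adjusted p = 1.0, DESeq2 adjusted p = 0.0492). Opn1sw was lower in each GFP library too, by less (log2 difference -0.23, -0.56 to 0.09; edgeR adjusted p = 1.0). Of all genes tested, 3.99% had no overlap between these groups, 1.52% with GFP above and 2.46% with GFP below. The other 8 members overlapped, with log2 differences from -0.37 (Arr3) to 0.16 (Gngt2). In these 6 normal libraries the members did not move as a block: over the 6 libraries Pearson's r of log2 CPM ran from -0.864 (Gngt2 with Cnga3) to 0.913 (Opn1mw with Gngt2), as a description of libraries that share scaling and include GFP 2 and wild type 3.

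Other genes of cones moved in both directions. Of 7 further genes used in cones, 3 rose against wild type, 2 fell and 2 did not pass, with a median log2 fold change of 0.35 beside -0.03 for all genes. Thrb, the thyroid hormone receptor that directs medium-wavelength cone fate, had 39.9, 34.9 and 50.1 CPM in rd10, against 94.2, 86.1 and 99.0 CPM in GFP and 101.3, 73.3 and 81.0 CPM in wild type, and fell 2.05-fold against wild type (edgeR adjusted p = 0.00217). Otop3, a proton channel gene, had 20.2 to 21.5 CPM in rd10, 9.43 to 11.4 CPM in GFP and 7.22 to 8.56 CPM in wild type and rose 2.61-fold (edgeR adjusted p = 4.49e-04). Slc24a2, the sodium, calcium and potassium exchanger of cones, rose 1.95-fold (edgeR adjusted p = 0.0121), and it is also used by other neurons. Kcnv2, a potassium channel subunit of rods and cones, was 29.5-fold lower (edgeR adjusted p = 1.78e-06). Without the lens libraries none of the 3 rises passed and 1 of the 2 falls did. Without wild type 2, 1 of the 3 rises passed.

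Genes that end the light response, most of them shared by rods and cones, fell with the rod cascade. Of 12 genes for shutoff and calcium feedback, 11 fell against wild type and Slc24a2 rose, with a median log2 fold change of -4.02. Guca1b, an activator of guanylate cyclase, was 118.8-fold lower, Pdc, phosducin, 47.1-fold, Rcvrn, recoverin, 30.1-fold, and Rgs9bp, the anchor of the complex that turns transducin off, 13.6-fold (edgeR adjusted p from 2.49e-07 to 1.12e-06). Rgs9bp still had 51.5, 50.8 and 53.6 CPM in rd10, against 712.3 to 817.6 CPM in GFP and 562.1 to 909.1 CPM in wild type. Of 8 transcription factors of photoreceptors, 6 fell and 2 did not pass (median log2 fold change -1.57). Crx, needed in rods and cones, was 5.71-fold lower, and Neurod1, which is also used in the inner retina, 3.13-fold. Nrl and Nr2e3, which set rod identity, were 180.7-fold and 92.2-fold lower (edgeR adjusted p from 1.73e-06 to 2.77e-05 for these 4).

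Markers of microglia, Müller glia and bipolar cells were higher in rd10 in part or in most of each list. The summed level of 12 microglial genes was 262.0 to 301.7 CPM in rd10, 83.5 to 127.9 CPM in GFP and 99.1 to 115.7 CPM in wild type, and 10 of the 12 rose against wild type (median log2 fold change 1.55), among them Csf1r by 2.76-fold and Itgam by 4.38-fold. Of 10 genes of Müller glia 9 rose (median log2 fold change 1.07), with Gfap, a filament of reactive glia, at 107.4 to 170.4 CPM in rd10, 13.5 to 23.0 CPM in GFP and 12.4 to 20.9 CPM in wild type. Of 6 OFF bipolar genes 3 rose (median log2 fold change 0.99). The 12 ON bipolar genes had log2 fold changes from -1.40 to 1.31 (median 0.65). Of these 6 rose and 0 passed as lower, and Grm6, the glutamate receptor of these cells, rose 2.34-fold. Without the lens libraries none of the microglial and bipolar genes passed (edgeR adjusted p = 0.0617 for Csf1r, adjusted p = 0.132 for Itgam and adjusted p = 0.152 for Grm6), and 3 of the Müller glia genes did. The summed level of 9 genes of the pigment epithelium overlapped between the groups, at 464.7 to 637.2 CPM in rd10, 319.9 to 494.2 CPM in GFP and 199.2 to 592.8 CPM in wild type. Of these 4 rose (median log2 fold change 0.92), including Dct by 2.17-fold, but 2 did without wild type 3 or rd10 1 and 1 without rd10 3. None of the 14 lens genes tested passed. No gene of these lists was at 0 in every library. The part of these cells in the values of the members was not tested.

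Genes with the most similar profiles over the 9 libraries were read from 11712 genes with a mean of at least 5 CPM, by Pearson's r of log2 CPM, as a description of libraries that share scaling and group. For Opn1sw they were Glt28d2 (r = 0.990), Ttc8 (r = 0.986) and Hist1h1c (r = 0.985). Ttc8, a gene of the complex that sorts cargo into cilia, had 52.8 to 56.8 CPM in rd10, 145.0 to 149.3 CPM in GFP and 156.0 to 198.9 CPM in wild type. For Pde6c they were Ephb6 (r = 0.987), Unc93b1 (r = 0.982) and Rnf112 (r = 0.980). Ephb6 shared its order of groups, with 36.1 to 37.9 CPM in rd10, 21.2 to 23.2 CPM in GFP and 25.5 to 28.0 CPM in wild type. For Opn1mw they were Eif2a (r = 0.992), Bre (r = 0.976) and Pttg1 (r = 0.975), and for Arr3 they were Hdac3 (r = 0.962), Pisd (r = 0.946) and Etv4 (r = 0.920). Eif2a peaked in GFP 2 (80.9 CPM) and wild type 3 (79.2 CPM), as Opn1mw did, and Hdac3 in wild type 3 (105.0 CPM), as Arr3 did.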

How the data were processed

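The deposited files hold 1 count per gene and library, which the authors made on the mouse build mm9, per the submitters' processing notes. All values are whole numbers with unequal totals and were read as raw counts. The aligner, the counting program, the annotation and the strand setting are not given in the sources used here. Genes were kept by filterByExpr (minimum count 10, minimum total 15), which left 14300, and were fitted with edgeR 4.0.16 in R 4.3.3 with TMM scaling, 1 mean per group and all 9 libraries. Adjusted p values are from its quasi-likelihood F-test unless another test is named, and 95% intervals use the standard error from the same test. Ratios of gene pairs are of raw counts within a library, and a prior count of 2, scaled by the library total, was added to each gene. Chi-square per degree of freedom between replicates was 13.0 to 76.1, so none was counted as a repeat. Same-numbered libraries of different groups correlated between -0.372 and 0.357 after the group means were removed, so the numbers do not pair them. 1 rod gene and the ratios that need it are not reported here. The named genes are the members, their other rod counterparts, overlapping genes, the 4 called genes of each list with the lowest adjusted p and the 3 most similar genes of 4 members. The members, lists and alternatives were chosen with earlier results of these data known. The fit was tested on data simulated from its own estimates of spread, with a common mean per gene and planted changes. That test does not cover libraries that stand apart, such as those with lens RNA. Alternatives included DESeq2 1.42.0, other scalings and filters, a replicate block, a gene length correction and libraries left out. Errors and intervals cover the spread between libraries.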

Additional observations from a re-analysis of the deposited data

How the results depend on the processing

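With 20 alternatives, the directions of Opn1sw and Pde6c in rd10 did not change against wild type or GFP. The number of all genes called moved with the scaling. With library totals, 3604 genes were higher against wild type (2067 as reported) and 4041 against GFP (2174 as reported). A change in the number of members called is therefore not by itself a result about the list. The number of members higher against wild type (1 as reported) was 4 with library totals and 2 with upper quartile scaling, a mean of at least 5 CPM, the length correction and DESeq2. Without the lens libraries it was 0, as was the number lower. Against GFP (3 higher as reported) it was 4 with library totals and upper quartile scaling, 2 with no filter and the length correction, and 1 without the lens libraries and with those groups fitted alone. In GFP against wild type DESeq2 called 1 member lower. Leaving out each library in turn gave 1 to 2 members higher and 1 to 2 lower against wild type, and 1 to 3 higher against GFP. The pairs called by ratio (13 of 16 as reported) were 0 against 3 wild type libraries and against 3 GFP libraries. They were also 0 without the lens libraries, without wild type 3 and GFP 2, and without any 1 of the rd10 libraries. In each of these settings the smallest p possible is above 0.05, so no pair could pass. Without any 1 of the normal libraries, 13 or 14 pairs were called. The replicate block left 1 higher and 1 lower against wild type and 2 higher and 1 lower against GFP, Cngb3 being lost (edgeR adjusted p = 0.0778). It gave Opn1mw a log2 difference of 0.0097 against GFP.

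Differences that missed the test changed sign in places, and the cause was not tested. Against wild type, Opn1mw was 0.11 with library totals, 0.24 without the lens libraries and 0.10 with the length correction. Gngt2 was 0.15, 0.64 and 0.31 in the same order and 0.11 without wild type 3 and GFP 2. Arr3 was 0.055 with library totals, 0.048 with the length correction and 0.26 without wild type 3 and GFP 2, and Pde6h was -0.12 with the length correction. Against GFP, Opn1mw was 0.30 with library totals, 0.068 with upper quartile scaling, 0.27 with the length correction, 0.0039 with the stricter filter and 0.25 without wild type 3 and GFP 2. Gnat2 was 0.14 with library totals. Gngt2 was 0.033 with library totals, 0.21 with the length correction and 0.18 without wild type 3 and GFP 2, and Pde6h was -0.23 both without the lens libraries and with the length correction. In both comparisons the length correction took Pde6h at 5940 bases, although this gene also has much shorter transcripts. In GFP against wild type, Opn1mw was 0.43 and Gnat2 0.15 without the lens libraries, and Gngt2 was -0.064 and Pde6h -0.43 without wild type 3 and GFP 2. The log2 ratio of Gnat2 to Gngt2 differed by 0.0090 against the GFP libraries, and that of Cnga3 to Cngb3 by 0.046 without the lens libraries. With 1 library left out, the ranges that cross 0 were -0.37 to 0.11 for Gngt2 and -0.49 to 0.26 for Arr3 against wild type. Against GFP they were -0.17 to 0.44 for Pde6h, -0.18 to 0.25 for Opn1mw and -0.47 to 0.18 for Gngt2. In GFP against wild type they were -0.29 to 0.42 for Gngt2, -0.15 to 0.064 for Cngb3, -0.41 to 0.026 for Opn1mw, -0.31 to 0.31 for Pde6h and -0.66 to 0.10 for Arr3. For the log2 ratios they were -0.24 to 0.034 for Opn1mw to Arr3 and -0.30 to 0.054 for Cnga3 to Cngb3.

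Over all genes, library totals gave 3604 higher and 1077 lower against wild type (2067 and 1988 as reported) and 4041 and 1055 against GFP (2174 and 2138). Without the lens libraries these were 86 and 457 against wild type and 876 and 970 against GFP. The replicate block gave 1817 and 1789 against wild type. Leaving out 1 library gave 1269 to 2891 higher and 1186 to 2530 lower against wild type. Against GFP it gave 1297 to 2266 higher and 1305 to 2138 lower.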
